A study of Danio rerio with 6 samples.

Results

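A set of 105 zebrafish transcripts with the highest level in adult females, an intermediate level in adult males and the lowest level in juveniles was described. The transcripts were chosen by their measured group means alone. A transcript was a member when its mean over the 6 fish was 100 normalised counts or more, its male mean was at least 3 times its juvenile mean, and its female mean was between 3 and 20 times its male mean. These limits were met by 105 of the 13927 transcripts in the deposited table, or 1.10% of the 9528 transcripts with a mean of 100 or more. The 105 transcripts came from 105 different assembled loci. The order of the 3 groups is therefore set by the choice of the members and is not a result.

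In zebrafish, the ovary of a mature female takes up a large part of the body cavity and its oocytes store maternal RNA, while the testis is small. RNA of a whole fish is thus a mixture in which the gonad, liver, muscle and other organs each have a share that depends on sex and stage. Juvenile zebrafish pass through a phase in which the gonad is still immature and resembles an early ovary, before it becomes an ovary or a testis. In such bulk samples fewer cells of a type and less RNA per cell cannot be told apart.

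Whole-body RNA was sequenced from 2 adult females, 2 adult males and 2 juveniles of 28 days post fertilisation (dpf), and each library is 1 fish. All fish had been euthanised with Tricaine by a breeder and none was treated in an experiment. The age of the adults, the strain and the sex of the juveniles were not given in the labels. The values are normalised counts, which are reads per assembled transcript divided by a size factor of the fish. The table's reads amounted to between 13980849 and 18635087 per fish, and 3 reads in 1 fish are worth 2.40 to 4.23 normalised counts. The table holds only transcripts that the authors had called by an adjusted p in their own comparison, so it is part of each library. Normalised counts grow with transcript length, so an order of transcripts by level is an order of reads and not of RNA molecules. The columns call the juveniles 2 and 3, and they are named so here.

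The members ranged from weak to very abundant. Their mean over the 6 fish had a median of 327 normalised counts and ran from 102 to 58282. The median member had 854 normalised counts in females, 141 in males and 25.9 in juveniles. In 29 members the mean was 1000 or more, and in 37 it was under 200. The 8 most abundant members held 68.0% of the members' summed mean, and the most abundant alone held 32.6%. The heat map of all members shows the brightest colours in females and the darkest in juveniles for the strong transcripts, and transcripts at both ends where the males differ from each other.

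**Figure D1:**
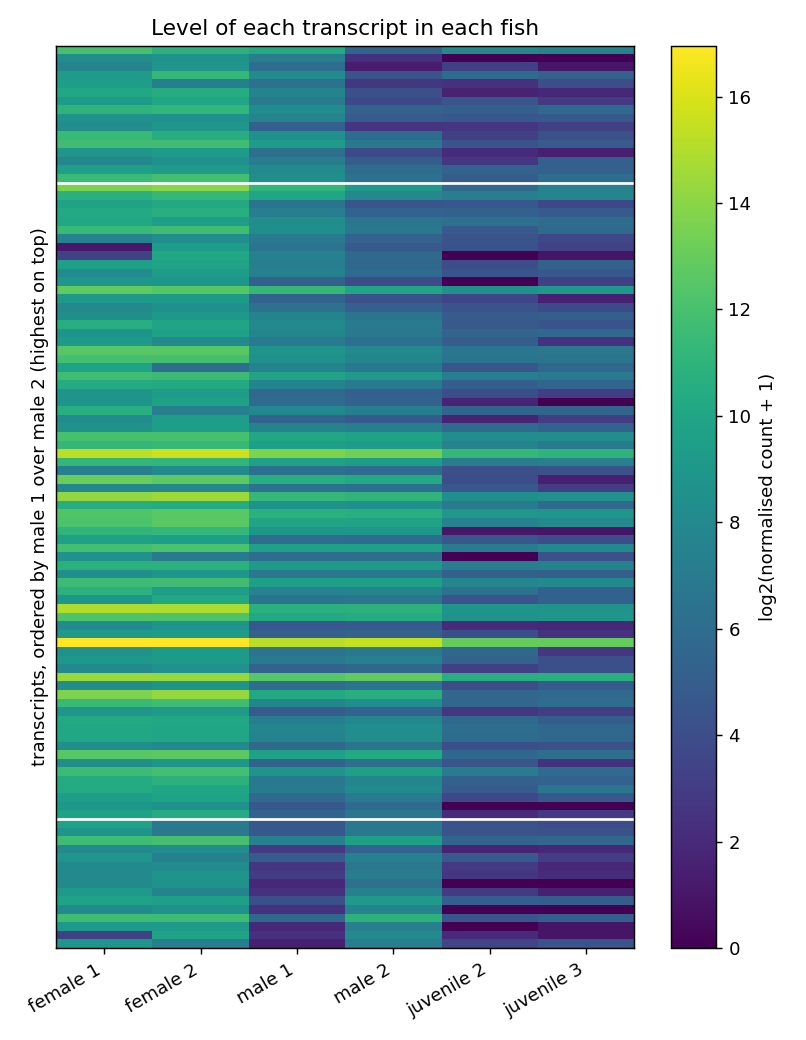
Level of each of the 105 transcripts (rows) in each fish (columns), coloured by log2(normalised count + 1) and ordered by the ratio of male 1 to male 2. White lines mark the 16 transcripts that were 4-fold or more higher in male 1 (top) and the 15 that were 4-fold or more higher in male 2 (bottom).

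None of the 105 assembly identifiers matched the gene name tables used here, and the table's own column for gene names is empty. Only pdia could be named, because the study shows a gene of that name with the values of MSTRG.29926.1 in its heat map of female genes. Protein disulfide isomerases form and rearrange disulfide bonds of proteins in the endoplasmic reticulum. The study does not say which family member pdia is. This transcript was the second most abundant member. It had 40197 normalised counts in female 1 and 53011 in female 2, 13051 in male 1 and 10579 in male 2, and 2561 in juvenile 2 and 2103 in juvenile 3. The 3 groups did not overlap. The female mean of 46604 ± 9061 was 3.94 times the male mean of 11815 ± 1748, and the male mean was 5.07 times the juvenile mean of 2332 ± 324 (SD, n = 2). On the log2 scale the fitted difference was 1.97 between females and males and 2.34 between males and juveniles, each with a standard error of 0.21.

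The most abundant member was MSTRG.6552.1, for which no gene name was given. It had 126802 and 124819 normalised counts in the females, 37584 and 45033 in the males, and 7721 and 7732 in the juveniles. The juveniles differed by less than the females or the males. MSTRG.2264.1 had nearly the same shape at a lower level, with 21279.7 and 20768 normalised counts in females, 5972 and 7535 in males, and 1589 and 1707 in juveniles. In both transcripts the female mean was close to the lower limit of the choice, at 3.05 and 3.11 times the male mean.

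MSTRG.21369.1 and MSTRG.11868.1 had a larger step between the adult sexes. MSTRG.21369.1 had 31049 and 30359.8 normalised counts in females, 1733 and 1891 in males, and 428 and 442 in juveniles. The female mean was 16.9 times the male mean, and the male mean was 4.17 times the juvenile mean. MSTRG.11868.1 had 19278 and 23622 normalised counts in females, 2482 and 2189 in males, and 349 and 375 in juveniles. Within each group of these 2 transcripts the fish lay close together, and no fish of a group reached another group.

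MSTRG.20933.1 had large steps both between the adult sexes and between males and juveniles. It had 12988 and 19769 normalised counts in females, 1252 and 1611 in males, and 47.6 and 55.5 in juveniles. Its ratio of females to males was 11.4 and its ratio of males to juveniles was 27.8. MSTRG.25667.1 had the widest spread between males of the 8 most abundant members, since male 1 had 2269.8 normalised counts and male 2 had 568. Its females had 12280.3 and 15632 normalised counts and its juveniles 56.1 and 179. The plot of the 8 most abundant members shows this gap and the close agreement of most other fish.

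**Figure D2:**
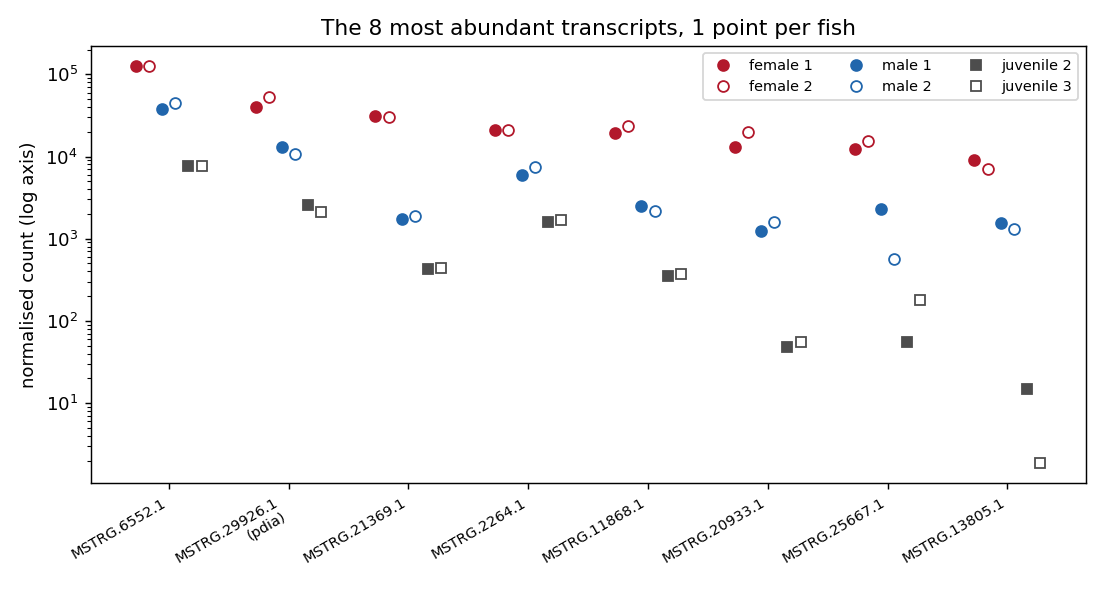
Normalised count (log axis) of the 8 most abundant members in each fish, with females in red, males in blue and juveniles in grey squares. The groups do not overlap in any of the 8, and MSTRG.25667.1 has the widest distance between the males (2269.8 in male 1 and 568 in male 2).

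A few members were close to absent in juveniles. MSTRG.2994.1 had 2205 and 2373 normalised counts in females, 513 and 478 in males, and 1 read in each juvenile. Its ratio of males to juveniles was 499.6, with an exact 95% interval for counting error from 138 to 4141, since only 2 juvenile reads were counted. The adults of each sex differed little in this transcript. MSTRG.13805.1 had 8948 and 7027 normalised counts in females, 1555 and 1319 in males, and 14.8 and 1.85 in juveniles, a ratio of males to juveniles of 172. Both transcripts were thus as steady between the males as pdia.

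In 4 members both juveniles had 0 reads, which allows a juvenile level of up to 1.49 normalised counts (3 reads over both juveniles). Against this floor the male mean was at least 63.0-fold higher for MSTRG.32340.1, 47.7-fold for MSTRG.15862.1, 29.1-fold for MSTRG.32341.1 and 28.5-fold for MSTRG.38039.1. In the first 3 of these the males were far apart. Another 4 members, MSTRG.2994.1 included, had 1 or 2 juvenile reads. Among them was MSTRG.37431.1 with a ratio of 249 (95% interval 40.4 to 8991). At such counts the size of the step between males and juveniles is known only roughly. Intervals and floors cover counting error only.

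The sizes of both steps varied widely among the members. The median ratio of females to males was 5.53, and it was 10 or more in 26 members and under 5 in 48. The median ratio of males to juveniles was 4.52, and it was 10 or more in 23 members and under 5 in 60. Across the 105 members the Spearman correlation between both log ratios was 0.0468. This value is a description only, because both ratios share the male libraries and both are bounded by the choice of the members. In 56 members the male step was the larger of the 2, and in 49 the female step was.

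**Figure D3:**
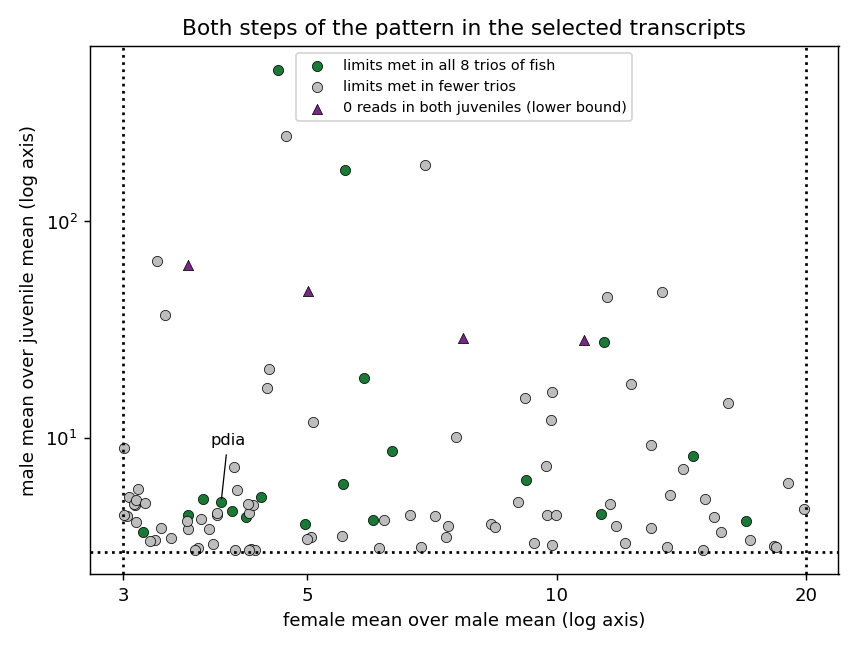
Male mean over juvenile mean against female mean over male mean for the 105 members (log axes), with dotted lines at the limits of the choice (3 for both axes, 20 for females over males). Green points are the 19 members that met the limits in all 8 trios of 1 female, 1 male and 1 juvenile, and triangles are the 4 members with 0 juvenile reads, drawn at their lower bound.

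The 4 members with the highest ratio of females to males were weak in males. MSTRG.12307.1 had 548 and 616 normalised counts in females, 40.9 and 17.6 in males, and 10.6 and 1.85 in juveniles, which gave a ratio of 19.9. MSTRG.5308.1 (ratio 19.0), MSTRG.29281.1 (18.4) and MSTRG.11655.1 (18.3) also had both females far above both males. In each of these 4 transcripts male 1 was above male 2. Male 2 of MSTRG.29281.1 (4.79) was below both juveniles (5.29 and 8.33), and male 2 of MSTRG.11655.1 (22.4) was below juvenile 2 (23.3). The lowest ratio of 3.01 belonged to MSTRG.24655.1, with 326 and 523 normalised counts in females, 192 and 90.3 in males, and 29.6 and 34.2 in juveniles.

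The members nearest to the limits had close neighbours outside the set. MSTRG.12307.1 was just below the upper limit, while MSTRG.27446.1 was left out with a ratio of females to males of 20.7. At the lower limit, MSTRG.22230.1 was left out at 2.98. MSTRG.17991.1 was the last member inside the limit on males to juveniles, at 3.05, and MSTRG.6842.1 was left out at 2.99. For the limit on the mean, MSTRG.31493.1 was inside at 102 normalised counts and MSTRG.37108.1 outside at 99.7. The set is thus part of a continuous range and has no natural border. The transcript of cyp17a1 (MSTRG.17444.1), the hydroxylase of steroid synthesis, lay beyond the upper limit with 6214 normalised counts in females, 171 in males and 21.4 in juveniles.

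The means hide differences between single fish, and these were examined next. Both females were above both males in 98 of the 105 members, against 46.6% of the 13748 transcripts that reached 10 normalised counts in 2 fish or more. Both males were above both juveniles in 92 members, against 31.6% of these transcripts. Both orders held in 85 members, which the choice favours, and the share of all transcripts with both orders was not taken. The same 13748 transcripts were fitted with limma-trend, as log2(normalised count + 1) of all 6 fish. At an adjusted p under 0.05, 81 members were called higher in females than in males, against 40.5% of all transcripts tested, and 64 members were called higher in males than in juveniles, against 16.2%. No member was called in the opposite direction. All 105 members passed this filter on low values, and 11 of them would not have passed without their females. The choice of the members used the same contrasts, so these counts support nothing. They give only the number of members that passed the adjusted p of 0.05. It was not passed by 24 members in females against males and by 41 in males against juveniles. The 3 groups shared the same estimate of spread, so a call can also be missed through fish outside the comparison. MSTRG.19991.1 was not called in males against juveniles, with 245 and 161 normalised counts in males and 44.4 and 45.3 in juveniles. Its females were 10.7-fold apart. When either juvenile was left out, a single juvenile remained. Fewer members were then called in males against juveniles, and so were fewer transcripts over the whole table. Over the whole table, 5564 transcripts were called higher and 2761 lower in females than in males, while with upper-quartile scaling 3201 were higher and 6175 lower. In males against juveniles 2228 were called higher and 2561 lower, while 4122 were higher and 1361 lower when fish were scaled to equal sums, and 79 members were then called higher.

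With 2 females, 2 males and 2 juveniles, 8 trios of 1 fish per group can be formed. The limits on both ratios were met in all 8 trios by 19 members, in 4 or more trios by 76 and in no trio by 10. Of the 19 members, 14 were among the 35 most abundant and 1 was among the 35 least abundant. They included pdia, MSTRG.21369.1, MSTRG.11868.1, MSTRG.20933.1, MSTRG.13805.1 and MSTRG.2994.1. MSTRG.6552.1 met the limits in 4 trios, and its ratio of females to males of 3.05 was close to the limit. In the 19 members the males differed by at most 2.01-fold. All 19 were called in both comparisons, which the limits on every trio favour. Of all transcripts tested, 40.5% were called higher in females than in males and 16.2% higher in males than in juveniles. The share called in both was not taken.

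The males of the set were far apart in many members. Distances were taken as ratios of normalised count + 1. The males differed by 4-fold or more in 31 of the 105 members (29.5%), against 271 of the 9528 transcripts with a mean of 100 or more (2.84%). The females differed by 4-fold or more in 8 members (7.62%, against 1.81%), and the juveniles in 8 members (7.62%, against 1.83%). On the log2 scale the median distance between the fish of a group was 0.40 in females, 0.94 in males and 0.52 in juveniles over the members, and 0.27, 0.29 and 0.25 over all transcripts with a mean of 100 or more. The males were thus farther apart than the females or the juveniles in the members, while over all transcripts the 3 distances were close to each other. No test was made of this, because transcripts are not replicates. A mean of 2 males can pass a limit through 1 high male, so the choice itself favours such transcripts.

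**Figure D4:**
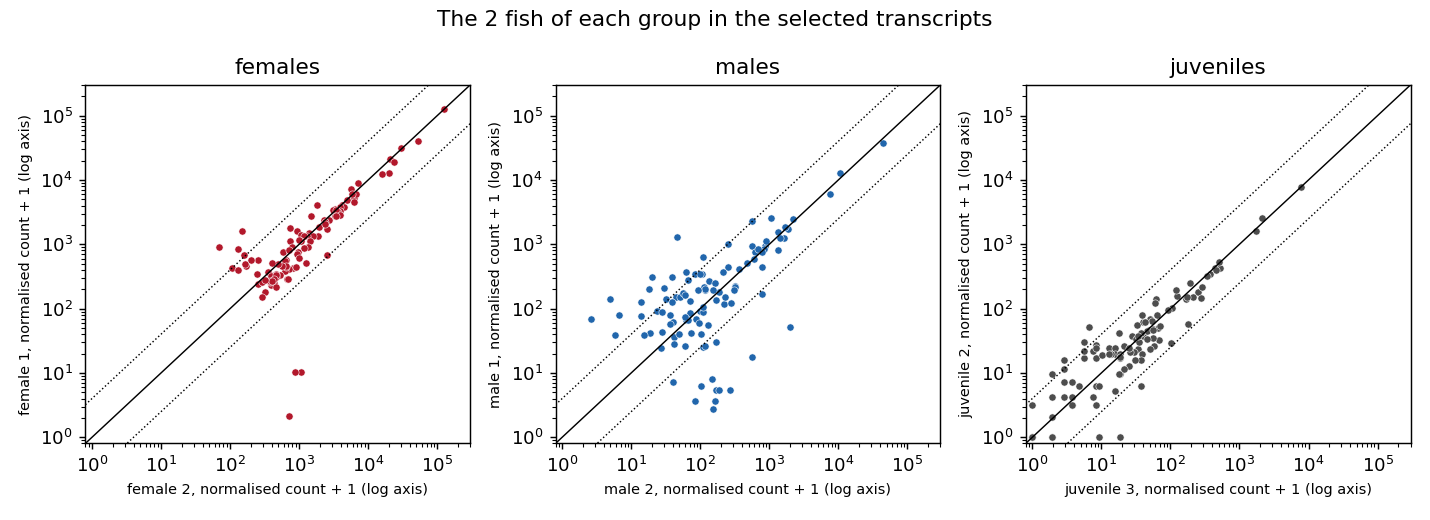
The first fish of each group against the second in the 105 members, as normalised count + 1 on log axes, with the line of equality and dotted lines at 4-fold. The males lie outside the 4-fold lines in 31 members, and the females and the juveniles in 8 each.

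The distance between the males was set against the level of the members. The 35 most abundant members had a median distance between the males of 0.36 on the log2 scale, the middle 35 of 1.00 and the 35 least abundant of 2.14. A distance of 4-fold or more was found in 7, 6 and 18 members of these groups in the same order, so that wide distances were most frequent among the 35 least abundant and not more frequent in the middle 35 than in the most abundant. The fewest reads over both males in any member were 49, but a single male had as few as 2 reads, and the part of counting error in the distances was not tested. The 53 members with a male mean up to the members' median of 141 had males 4-fold or more apart in 39.6%, against 3.87% of the 1756 other transcripts in the same range of male means. Above that median the shares were 19.2% of 52 members and 1.61% of 7405 other transcripts. These shares are a description, because the distance between the males comes from the same values as the male mean that chose the members.

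The same shares were taken in transcripts that met only 1 of the 2 steps. In 2223 transcripts with a mean of 100 or more the female mean was 3 to 20 times the male mean, but the male mean was under 3 times the juvenile mean. Of these, 1.08% had males 4-fold or more apart, and their median distance between the males was 0.26 on the log2 scale. In 819 transcripts the male mean was at least 3 times the juvenile mean, but the female mean was under 3 times the male mean. Here 8.67% had males 4-fold or more apart, with a median distance of 0.51. The level of the males was not the same in these sets, with a median male mean of 141 normalised counts in the members, 324 in the first set and 677 in the second. The shares of 29.5%, 1.08% and 8.67% are therefore given side by side only.

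Neither male was higher throughout. Male 1 was higher in 60 members and male 2 in 45, and a distance of 4-fold or more was found 16 times with male 1 higher and 15 times with male 2 higher. In 46 members the lower male alone did not reach 3 times the juvenile mean, taken as at least the floor of 1.49 normalised counts. The male that reached it was male 1 in 30 members and male 2 in 16. The lower male could miss this limit narrowly or widely. In MSTRG.29063.1 male 1 had 2.92 and male 2 had 3.31 times the juvenile mean, while in MSTRG.29880.1 male 2 had 0.201 times. Without the floor the number was 42. Without male 1 the limits were met by 89 transcripts, of which 57 were among the 105 members, and without male 2 by 124, of which 71 were members.

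The widest distances with male 1 higher were in MSTRG.8706.1, MSTRG.15862.1 and MSTRG.29880.1. MSTRG.29880.1 had 4073 and 1799.7 normalised counts in females, 1312 in male 1 and 44.7 in male 2, and 251 and 194 in juveniles. Male 2 was thus below both juveniles. MSTRG.15862.1 had 316 and 395 normalised counts in females, 138 in male 1, 5 reads in male 2 and 0 reads in both juveniles. MSTRG.8706.1 had 212 and 468 normalised counts in females, 68.5 in male 1 and 1.60 in male 2, and 8.47 and 0.925 in juveniles. The lower male was at or below the higher juvenile in 8 of the 16 members that were 4-fold or more higher in male 1, and in 4 of the 15 that were 4-fold or more higher in male 2.

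The widest distances with male 2 higher were in MSTRG.35343.1, MSTRG.18293.1 and MSTRG.17185.1. MSTRG.35343.1 had 495 and 161 normalised counts in females, 1.78 in male 1 and 153 in male 2, and 10.6 and 20.4 in juveniles. MSTRG.18293.1 had 553 and 613 normalised counts in females, 2.67 in male 1 and 165 in male 2, and 0 and 0.925 in juveniles. Male 1 had 2 reads of the first transcript and 3 of the second, while male 2 had 191 and 207. MSTRG.23248.1 was alike, with 918 and 798 normalised counts in females, 16.9 in male 1 and 554 in male 2, and 32.8 and 30.5 in juveniles. In these 3 transcripts the mean of the males came mostly from male 2 and lay far above male 1.

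Both sets of members with distant males differed in level. Those with male 1 higher had a median of 732 normalised counts in females, 205 in male 1, 24.0 in male 2 and 17.3 in juveniles. Those with male 2 higher had a median of 341 in females, 6.23 in male 1, 165 in male 2 and 4.56 in juveniles. In both sets the lower male was near the juveniles, with a median of 1.36 times the juvenile mean where male 1 was higher and 1.73 times where male 2 was higher. This follows in part from the choice, since the sets were formed by the distance between the males. The 74 members with males under 4-fold apart had medians of 1076 in females, 192 in male 1, 131 in male 2 and 36.8 in juveniles. Of these 74 members, 66 were called in females against males, against 40.5% of all transcripts tested, and 57 in males against juveniles, against 16.2%. Where male 1 was 4-fold or more higher, 12 and 5 of the 16 members were called, and where male 2 was, 3 and 2 of the 15. The distance between the males is part of the spread in these fits, so these counts follow in part from the split and support nothing.

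Levels of 5 ovarian and testis genes were read in the same fish, and their differences between the males were not tested. The names of these transcripts rest on the study's heat maps, as for pdia. The oocyte growth factors bmp15 (MSTRG.10580.1) and gdf9 (MSTRG.18441.1) together had 8961 and 11134 normalised counts in females, 55.1 in male 1 and 11.2 in male 2, and 4.23 and 15.7 in juveniles. Cyp17a1 had 251 normalised counts in male 1, against 91.9 in male 2, and igf3 (MSTRG.11416.1), a gonadal growth factor, had 5 reads in male 1 and 2 in male 2, which is near the floor of 3 reads. Sox9a (MSTRG.15807.1), a factor of testis development, had 875 in male 1 and 634 in male 2. It was not limited to males, with 283 and 400.2 in females, and it was highest in juveniles, with 1084 and 1059. The value in male 1 was 1.38 to 6.01 times that in male 2 over the 5 transcripts, and none was at 0 reads in any fish. The 15 members with male 2 higher by 4-fold or more had the other order. The part of these genes' tissues in the members' values was not tested.

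Some members carry neighbouring locus numbers of the assembly. StringTie numbers loci as it passes along each sequence, so that adjacent numbers usually stand for loci next to each other, but the table gives no coordinates. Of the 105 members, 9 were within 2 numbers of another member, in 4 runs, and they were picked out after their values had been seen. How many such runs an equal number of other transcripts would hold was not taken. In the run of MSTRG.18290.1, MSTRG.18291.1 and MSTRG.18293.1 male 2 was higher than male 1 by 19.3, 38.8 and 62.0 times. MSTRG.18291.1 was the strongest of them, with 3475 and 3315 normalised counts in females, 50.7 in male 1 and 1965 in male 2, and 22.2 and 32.4 in juveniles. MSTRG.18290.1 had 258 and 293 normalised counts in females, 5.34 in male 1 and 103 in male 2, and 6.35 and 2.78 in juveniles. Taken as ratios, male 1 was thus nearer to the juveniles and male 2 nearer to the females in all 3 transcripts.

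In each of the other runs, too, 1 male was higher in both transcripts. MSTRG.32340.1 and MSTRG.32341.1 were higher in male 2 by 41.1 and 31.4 times and had 0 reads in both juveniles. MSTRG.32340.1 had 282 and 390.4 normalised counts in females, 4.45 in male 1 and 183 in male 2, and MSTRG.32341.1 had 264 and 404 in females, 2.67 in male 1 and 83.9 in male 2. MSTRG.2190.1 and MSTRG.2191.1 were higher in male 1 by 3.34 and 3.55 times, and MSTRG.17990.1 and MSTRG.17991.1 by 4.16 and 3.48 times. Within each run the same male was higher in every transcript. How often this holds for neighbouring loci of the whole table was not taken. Reads of loci that overlap or share sequence cannot be told apart in this table, so the transcripts of a run may not be separate measurements.

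**Figure D5:**
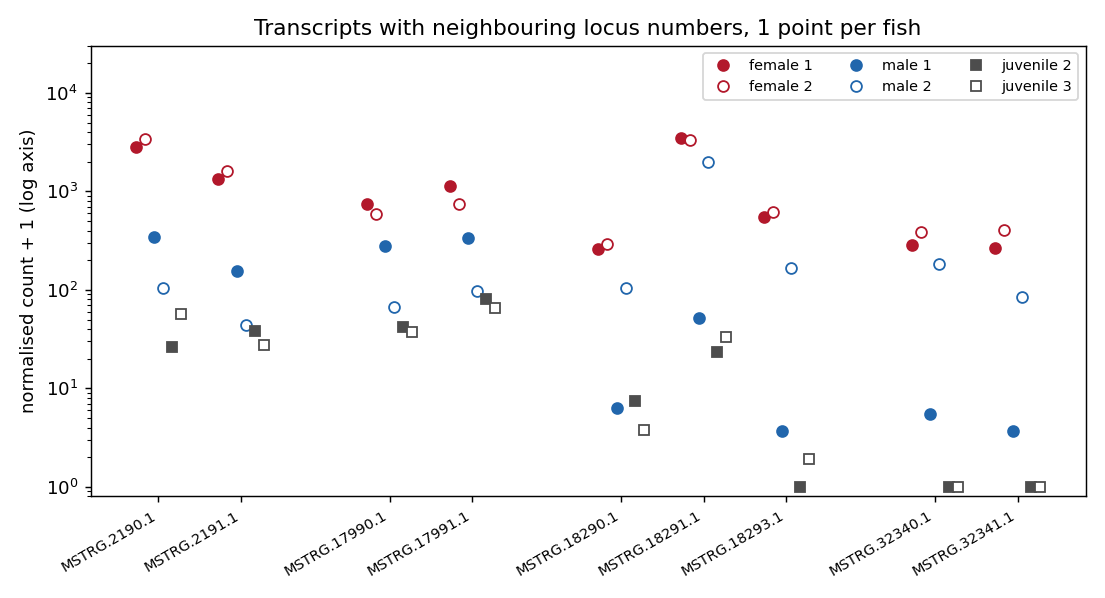
Normalised count + 1 (log axis) of the 9 members with neighbouring locus numbers in each fish, with a gap between the 4 runs. Male 1 (filled blue) is above male 2 (open blue) in the 2 runs on the left and below it in the 2 runs on the right.

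In a few members the females disagreed, and in MSTRG.17185.1 the males did too. The females were 10-fold or more apart in 5 members, which were chosen after their values had been seen. MSTRG.7174.1 had 1.16 normalised counts in female 1, from 1 read, and 707 in female 2, 87.2 and 27.2 in males, and 18.0 and 9.25 in juveniles. MSTRG.37431.1 had 9.29 and 1077 in females, 174 and 55.9 in males, and 0 and 0.925 in juveniles. MSTRG.17185.1 had 9.29 and 881 in females, 4.45 and 265 in males, and 3.17 and 0.925 in juveniles. In these 3 transcripts female 1 was below a male or below both. In MSTRG.19991.1 and MSTRG.30917.1 female 2 was the low fish, with 1584 and 148 normalised counts in the females of the first and 894 and 69.1 in those of the second. On the log2 scale MSTRG.7174.1 was lower in females than in males, by a fitted difference of -0.35 (standard error 2.47), which has the opposite sign to the difference of its means. This sign was not stable. The difference was 3.83 without female 1, 0.47 without male 1 and 0.57 with a pseudocount of 10.

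Most members were the first transcript of their locus (93.3%, against 92.7% of the table), and 4 had another transcript of the same locus in the table. The other transcript was weak in all 4. MSTRG.19192.2 had 36.3 normalised counts in females, 10.1 in males and 1.59 in juveniles, and its member MSTRG.19192.1 had 554, 171 and 51.0 in the same groups. The group means of both were thus ordered alike, but single fish of MSTRG.19192.2 overlapped. Its female 1 (16.3) was below male 1 (17.8), and its male 2 (2.40) was below juvenile 2 (3.17), each of these last values from 3 reads. MSTRG.33598.3 had 62.7 and 147 normalised counts in females, while the member MSTRG.33598.2 had 858 and 128, so that the higher female was not the same for both transcripts of this locus. MSTRG.36169.2 had 38.6 normalised counts in females, 0 in males and 1.59 in juveniles, from 0 reads in the males and 3 reads in the juveniles, so that a step between males and juveniles could not be judged. Its member MSTRG.36169.1 had 604 in females, 38.2 in males and 10.3 in juveniles. MSTRG.31493.2 had 10.7 normalised counts in females, 8.80 in males and 0 in juveniles, while its member MSTRG.31493.1 had 223 in females, 66.9 in males and 17.3 in juveniles.

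The authors marked 47 transcripts of the table as selected, and notes beside 4 of them speak of a high level in females alone or in males and juveniles. Of the 105 members 1, pdia, carries such a mark, beside 47 of the 9528 transcripts with a mean of 100 or more. The other members, among them MSTRG.6552.1 with a level above pdia in every fish, were not marked.

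Over all fish, the members were a small part of the table. They made up 1.91% of its summed normalised counts in female 1 and 1.96% in female 2, 0.749% in male 1 and 0.747% in male 2, and 0.100% in juvenile 2 and 0.106% in juvenile 3. The fish of a group were thus nearly equal in the sum, although single members differed between the males. Without MSTRG.6552.1 and pdia the shares were 1.13% and 1.16% in females, 0.342% and 0.309% in males, and 0.0437% and 0.0492% in juveniles. The males were thus close to each other with and without these 2 transcripts.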

How the data were processed

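RNA of 6 whole zebrafish was analysed. The authors used HISAT2 2.1.0 for mapping (GRCz11), StringTie 1.3.4 for assembly and merging, featureCounts 1.6.3 for counting and, on Galaxy, DESeq2 2.11.40.2 for normalisation. The deposited signal values are normalised counts, for which each fish has its own DESeq2 size factor, and 100% of them were whole reads within 0.01 of a read. The deposited table also holds the mean over all fish and results of the authors' own comparison, which were not used: log2 fold changes with standard errors, Wald scores and p-values.

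Members and lists were chosen with earlier results of these data known. The rule of choice was applied to means of n = 2 fish. Transcripts named were those with the highest mean, the highest or lowest ratios, the nearest limits, a name, a mark or a second transcript of the locus. Limma-trend in limma 3.58.1 (R 4.3.3) was fitted on log2(normalised count + 1) for transcripts with at least 10 normalised counts in 2 fish. The fit had 3 groups, with Benjamini-Hochberg adjustment over the whole table. It was also run on simulated data with changes in females alone, which does not cover the distances between the males. Alternatives were other scalings, filters, limits and a pseudocount of 10, edgeR 4.0.16 and DESeq2 1.42.0 on the recovered reads, a replicate block and leaving out each fish. Counts over single trios of fish and over members with males under 4-fold apart were added after seeing the data. Summaries were made in Python 3.11.15 (scipy 1.17.1, numpy 2.4.6, pandas 2.3.3). Ratios of few reads have exact 95% intervals. The labels number the juveniles 1 and 2, so the juvenile columns were mapped to the group only.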

Additional observations from a re-analysis of the deposited data

How the results depend on the processing

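The limits were met by 105 transcripts with the deposited size factors. With a median of ratios from the table's own transcripts they were met by 60 transcripts, of which 53 were members, and with the upper quartile by 65, of which 42 were members. With TMM the number was 84 (60 members), and scaling to the summed counts gave 107 (53 members). The table holds only transcripts that the authors had called. Rescaling moved the median log2 difference of all transcripts between females and males to -0.40 with TMM, -0.41 with the median of ratios, -0.61 with the total and -0.84 with the upper quartile, against 0.16. A mean of at least 200 left 68 transcripts and a ratio of males to juveniles of at least 2 admitted 211. All 8 trios were met by 19. Leaving out 1 fish gave 85 to 146 transcripts, and with other limits (a mean of 50, males 4 times juveniles, females 2 to 20, 4 to 20 or 3 to 30 times males) 72 to 155. Members called in males against juveniles were 40 to 64 and in females against males 66 to 79 when 1 fish was left out. In these fits MSTRG.29880.1 was called lower in males than in juveniles without male 1 (-2.28), and MSTRG.7174.1 (-4.53) and MSTRG.37431.1 (-3.28) were called lower in females than in males without female 2, by limma. Over the whole table, too, each fit without 1 fish called fewer transcripts higher than the fit of all 6 fish, in both comparisons. A lower number of called members without 1 fish is thus not particular to the members. Over the other alternatives the members called in males against juveniles were 60 (pseudocount of 10) to 90 (DESeq2). Of all transcripts tested, 2145 of 13748 and 2544 of 13748 were called higher in these fits. In females against males the members called were 60 (upper quartile) to 88 (pseudocount of 10), beside 3201 of 13717 and 5681 of 13748 transcripts.

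The replicate numbers did not pair the adults (correlation of deviations -0.0424 across 13748 transcripts). With adults only, 87 members were called in females against males with a replicate block and 78 without it. Of the 13089 transcripts tested, 5304 and 5432 were called higher in these fits.

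Of 1209 fitted log2 differences of 37 named members under the alternatives, 1032 kept their direction and call, 88 lost the call, 66 gained it and 23 turned. When 1 fish was left out, males minus juveniles ranged from -0.87 to 4.09 for MSTRG.23248.1, -0.40 to 2.36 for MSTRG.29281.1, -2.28 to 2.57 for MSTRG.29880.1 (-0.04 without juvenile 3), -2.50 to 3.29 for MSTRG.35343.1 (-0.05 without juvenile 2) and -0.72 to 4.02 for MSTRG.8706.1. Females minus males ranged from -1.48 to 4.53 for MSTRG.17185.1, -0.42 to 2.99 for MSTRG.19991.1, -1.14 to 2.54 for MSTRG.30917.1, -3.28 to 3.43 for MSTRG.37431.1 and -4.53 to 3.83 for MSTRG.7174.1. In females minus males MSTRG.30917.1 turned with the total of the table (-0.10) and the upper quartile (-0.31), MSTRG.37431.1 with the total (-0.71), TMM (-0.48), the median of ratios (-0.49) and the upper quartile (-0.90), and MSTRG.7174.1 with a pseudocount of 10 (0.57), edgeR (2.63) and DESeq2 (2.63). The cause was not tested.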
